A study of Ovis aries with 3 samples.

Results

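*GADD45A* and *SELENOM* are the 2 genes by which the study named neural tube cells in sheep embryos, and they were followed here across every cell group of the deposited data. Both were selected on their expression in these same libraries, where the study used them to name a cluster, so their levels are given as a description. They are 2 of the 26478 genes listed in the count tables, as ENSOARG00020009930 and ENSOARG00020019799. The question was how closely the pair marks cells that carry *SOX2*, *PAX6* or *NEFM*. The study itself assigns *SOX2* and *PAX6*, with *IRX3*, to neuromesodermal progenitors, and *NEFM* and *NEFL* to early neurons. It lists both apart from the neural tube. It also imputed missing values with MAGIC and aligned samples with Harmony. Raw counts without these steps were used here, so the study's neural tube cluster itself was not examined. Single cells of whole embryos were profiled in 3 libraries, 1 per group: a Hulunbuir short-tailed sheep (HSTS) embryo at day 19 (E19 HSTS), a Hu sheep (HS) embryo at day 19 (E19 HS), and Hu sheep at day 16 (E16 HS). According to the study's genotyping of the animals used, HSTS carry a point mutation of the gene *T* on both copies and HS the wild-type allele. The label of the E16 HS library names 1 embryo while the design text names 3 for that group, and breed and genotype cannot be told apart in these data. Embryos were dissociated with collagenase and red cells were lysed before capture, so the share of blood cells is not that of the embryo.

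After filtering, 9618, 10629 and 11329 cells were kept of the 11114, 12064 and 12645 deposited barcodes (here and below in the order E19 HSTS, E19 HS, E16 HS, where no library is named), with a median of 8675, 6900 and 9046 unique molecular identifiers (UMIs, each standing for 1 captured transcript). The libraries shared 31 to 37 cell barcodes pairwise. To compare cells of unlike depth, each cell was thinned at random to 3000 UMIs, which left 8512, 9284 and 10012 cells and left out 1106, 1345 and 1317 shallower ones. Levels are UMIs per 1000000 UMIs (CPM) with exact 95% Poisson intervals, and shares of cells have exact 95% binomial intervals. All intervals cover counting error only. With 1 library per group there is no replicate, no test was made, and embryo-to-embryo spread is not measured.

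*GADD45A* encodes a small nuclear protein that cells induce under DNA damage and other stress, partly through p53, and that acts in growth arrest and DNA repair. It is also known from erythroid differentiation. *SELENOM* encodes a selenoprotein of the endoplasmic reticulum with a thioredoxin-like fold, known to be abundant in brain. *SOX2* and *PAX6* are transcription factors of neuroepithelial progenitors, and *NEFM* and *NEFL* are neurofilament subunits of differentiating neurons.

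Both genes were widely expressed in these embryos. *GADD45A* stood at 93.2 CPM (91.4 to 95.2), 73.4 (71.6 to 75.2) and 81.4 (79.7 to 83.1), from 9285, 6513 and 9215 UMIs. *SELENOM* stood at 74.8 CPM (73.1 to 76.5), 124 (121 to 126) and 188 (185 to 190) in the same order. By UMIs, *GADD45A* ranked 967 of 18096 detected genes, 1265 of 18017 and 1410 of 18198, and *SELENOM* ranked 1183, 795 and 667. At full depth a *GADD45A* UMI was found in 37.1%, 26.3% and 32.7% of kept cells, and a *SELENOM* UMI in 31.3%, 42.1% and 49.0%. Both genes were found together in 9.54%, 11.9% and 16.5%.

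Thinning lowered these shares and kept their order. *GADD45A* was then found in 17.1% (16.3 to 17.9), 12.7% (12.1 to 13.4) and 14.8% (14.1 to 15.5) of cells. *SELENOM* was found in 16.7%, 24.6% and 29.7%. Both were found in 235, 360 and 509 cells, or 2.76% (2.42 to 3.13), 3.88% (3.49 to 4.29) and 5.08% (4.66 to 5.53). The product of the single-gene shares is 2.86%, 3.13% and 4.39%, which lies within the interval of the pair in E19 HSTS and below it in both HS libraries.

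Cells that carried *SOX2* and *PAX6* had little *GADD45A*. A list of 12 neural progenitor genes summed to 2208, 2116 and 1815 CPM in these cells against 637, 746 and 459 CPM in all thinned cells. The list includes *SOX2* and *PAX6* themselves, so the gate sets part of this difference and the sum is no independent check. The gated cells numbered 300, 387 and 135, and 91.0%, 91.5% and 87.4% of them fell in neural progenitor-like clusters. Those clusters were named from the same list. In them *GADD45A* stood at 16.7 CPM (9.33 to 27.5), 12.1 (6.59 to 20.2) and 14.8 (5.44 to 32.2). In cells without a UMI of *SOX2*, *PAX6*, *NEFM* or *NEFL* it stood at 94.3, 80.2 and 82.97 CPM. The intervals of these cell groups did not overlap in any library. The ratio was 0.177 (0.0987 to 0.292), 0.150 (0.0820 to 0.253) and 0.179 (0.0655 to 0.389).

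*SELENOM* was lower in the same cells too, by less. It stood at 54.4 CPM (40.3 to 72.0), 75.8 (60.8 to 93.4) and 98.8 (70.6 to 134) in *SOX2* and *PAX6* cells, against 91.0, 161 and 203 CPM in cells with none of the 4 genes. The ratio was 0.598 (0.441 to 0.794), 0.470 (0.376 to 0.581) and 0.487 (0.348 to 0.664). The E19 HSTS difference did not hold throughout, with 0.876 (0.678 to 1.11) in another random thinning and 0.770 (0.567 to 1.02) without a small cluster described below. In E16 HS the ratio was 0.980 (0.506 to 1.71) at 1500 UMIs per cell and 0.205 (0.0249 to 0.743) where each gate gene needed 2 UMIs. Only 1, 3 and 1 of the *SOX2* and *PAX6* cells held both *GADD45A* and *SELENOM*, which is 0.333% (0.00844 to 1.84), 0.775% (0.160 to 2.25) and 0.741% (0.0188 to 4.06). Among cells with none of the 4 genes the share with both was 2.88% (2.50 to 3.31), 4.42% (3.94 to 4.94) and 5.51% (5.04 to 6.02).

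Each single gate showed the same order. In the 1444, 2049 and 994 cells with *SOX2*, *GADD45A* stood at 19.6, 20.7 and 24.1 CPM and *SELENOM* at 76.2, 93.2 and 94.6 CPM, and 1.59% (1.01 to 2.38), 1.85% (1.32 to 2.54) and 1.71% (0.999 to 2.72) of the cells held both. *SOX2* is also used outside the neural tube: 79.2% and 82.9% of *SOX2* cells were neural progenitor-like at day 19 but 51.2% in E16 HS. In the 417, 558 and 219 cells with *PAX6*, *GADD45A* stood at 19.2, 14.3 and 16.7 CPM, *SELENOM* at 60.0, 85.4 and 76.1 CPM, and both were found in 3, 5 and 1 cells.

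*NEFM* cells differed from the progenitors. In the 244, 309 and 194 cells with *NEFM*, *GADD45A* stood at 56.0 CPM (40.2 to 76.0), 49.6 (36.3 to 66.2) and 36.1 (22.3 to 55.2), below the cells with none of the 4 genes in each library. *SELENOM* stood at 221 CPM (189 to 258), 257 (225 to 292) and 149 (120 to 184), which is 2.43 times (2.06 to 2.86), 1.59 times (1.39 to 1.82) and 0.737 times (0.589 to 0.911) the level in cells with none of the 4 genes. The *SELENOM* intervals lay above 1 in both day 19 libraries and below 1 in E16 HS. Of *NEFM* cells, 6.15% (3.48 to 9.94), 5.83% (3.49 to 9.05) and 4.12% (1.80 to 7.96) held both genes. The gate marked neurons less well at day 16: 52.9% and 48.2% of *NEFM* cells were early neuron-like at day 19, while in E16 HS the most frequent class was gut-like, with 28.4%.

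Cells with *NEFM* and *NEFL* together numbered 91, 111 and 17. Of these 82.4% and 82.9% were early neuron-like at day 19, while in E16 HS the most frequent class was gut-like, with 41.2%, and the gut list summed to 5451 CPM against 3255 for the early neuron list. The E16 HS values thus rest on few cells of mixed class. *GADD45A* stood there at 33.0 CPM (15.1 to 62.6), 60.1 (36.7 to 92.8) and 58.8 (12.1 to 172), and *SELENOM* at 128 (89.3 to 178), 273 (220 to 336) and 275 (150 to 461). In E19 HSTS 1 of the 91 cells held both genes, against 9 of 111 in E19 HS and 1 of 17 in E16 HS. The intervals of these shares, 0.0278 to 5.97%, 3.77 to 14.8% and 0.149 to 28.7%, overlapped.

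**Figure D1:**
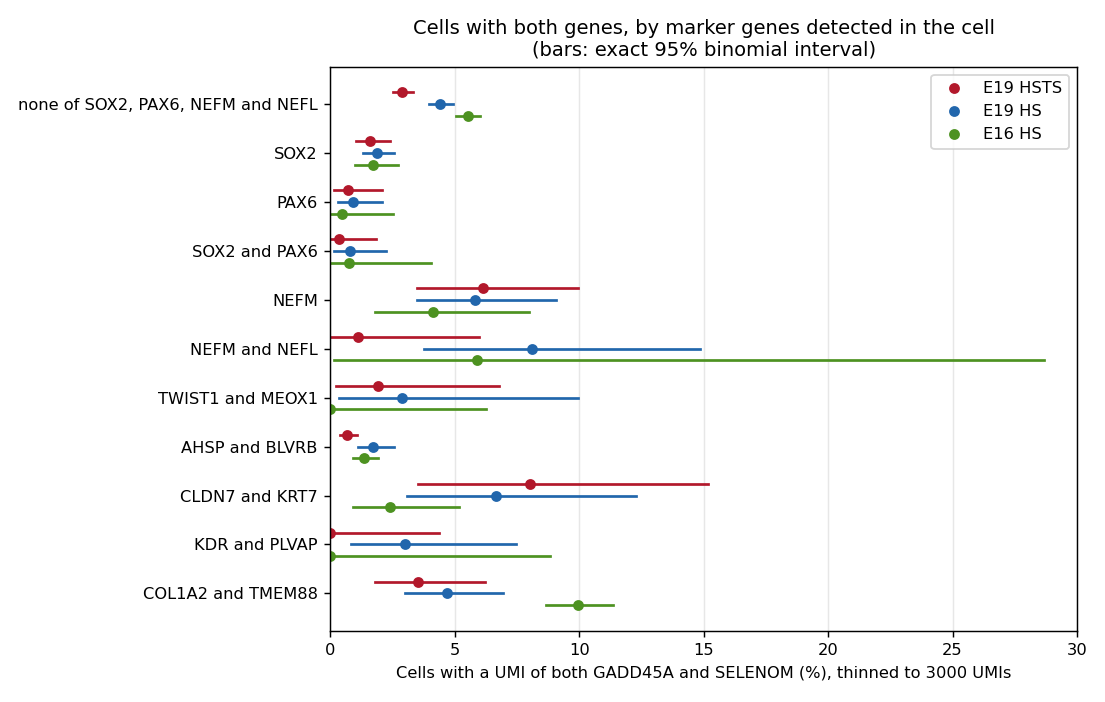
Share of cells with a UMI of both *GADD45A* and *SELENOM* (x axis, percent) among cells gated on the genes named on the y axis, with cells thinned to 3000 UMIs, 1 colour per library and bars for the exact 95% binomial interval. *SOX2* and *PAX6* cells lie at 0.333 to 0.775%, cells with none of the 4 neural genes at 2.88 to 5.51%, and *COL1A2* and *TMEM88* cells of E16 HS at 9.93%.

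Read the other way, most cells with both genes carried none of the neural genes. Of the 235, 360 and 509 cells with *GADD45A* and *SELENOM*, 16.2% (11.7 to 21.5), 15.0% (11.5 to 19.1) and 4.91% (3.20 to 7.17) held a UMI of *SOX2*, *PAX6* or *NEFM*. Among all thinned cells the share was 20.2%, 26.1% and 12.2%. The share was thus not higher among cells with the pair than among all cells, and its interval lay below that of all cells in E19 HS and E16 HS. For *SOX2* alone the shares were 9.79%, 10.6% and 3.34% against 17.0%, 22.1% and 9.93% of all cells, and for *PAX6* 1.28%, 1.39% and 0.196% against 4.90%, 6.01% and 2.19%. *NEFM* was found in 6.38% (3.62 to 10.3), 5.00% (2.99 to 7.79) and 1.57% (0.681 to 3.07) of cells with the pair against 2.87%, 3.33% and 1.94% of all cells, a difference beyond the intervals in E19 HSTS only.

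The study names other gene pairs for other cell types, and most of those cells held *GADD45A* and *SELENOM* together more often than *SOX2* and *PAX6* cells by point value. Not all did: *KDR* and *PLVAP* cells held both in 0 of 83, 4 of 134 and 0 of 40 cells. *TWIST1* and *MEOX1* cells held both in 2 of 104, 2 of 70 and 0 of 57. *COL1A2* and *TMEM88* cells, the study's mesenchymal pair, held both genes in 3.53% (1.77 to 6.22), 4.67% (2.99 to 6.93) and 9.93% (8.64 to 11.3) of 312, 492 and 1964 cells, above the interval of *SOX2* and *PAX6* cells in both HS libraries, with *SELENOM* at 169, 241 and 360 CPM. Cells with *CLDN7* and *KRT7*, the gut pair, held both in 8 of 100, 9 of 135 and 6 of 250 cells. *MYL7* and *TNNT2*, genes of the contractile apparatus of heart muscle, marked 75, 74 and 17 cells, of which 14.7% (7.56 to 24.7), 2.70% (0.329 to 9.42) and 5.88% (0.149 to 28.7) held both.

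*AHSP* and *BLVRB* cells showed the 2 genes apart. *AHSP* encodes the chaperone of alpha-globin and *BLVRB* a biliverdin reductase of red cells, and they marked 2526, 1403 and 2229 cells. *GADD45A* stood at 140, 114 and 111 CPM there and *SELENOM* at 7.52, 23.8 and 41.9 CPM, and 0.673% (0.393 to 1.08), 1.71% (1.10 to 2.53) and 1.35% (0.910 to 1.92) held both. The urogenital pair *EMX2* and *PAX2* marked 2, 3 and 1 cells, *TFAP2B* and *SOX10* marked 1, 4 and 8, and *C1QC* and *C1QB* marked 8, 19 and 0, which is too few for a share.

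Against all genes of these cells, *GADD45A* was among the most depleted in *SOX2* and *PAX6* cells, relative to cells with none of the 4 genes. Those comparison cells held 98.3%, 98.2% and 98.6% of blood progenitor-like cells, a class high in *GADD45A* as given below. Without blood cells the E19 HSTS ratio was 0.248 (0.135 to 0.418) instead of 0.177. The ratio of the *GADD45A* level to that in the comparison cells was -2.50, -2.73 and -2.49 on the log2 scale. Of the 8742, 8892 and 8981 genes with at least 50 thinned UMIs, 1.73%, 1.69% and 1.14% lay lower. Of these genes 348, 337 and 1054 had no UMI in the gated cells and were set to 3 counts, which can place them above *GADD45A*. Among genes with at least 200 UMIs, of which 39, 39 and 139 had none, 2.35%, 2.13% and 1.70% lay lower. *SELENOM*, at -0.74, -1.09 and -1.04, had 12.01%, 9.95% and 8.48% of genes below it. In these comparisons 8.88%, 10.9% and 9.03% of genes were at least 2-fold lower in *SOX2* and *PAX6* cells and 11.5%, 6.34% and 9.36% at least 2-fold higher. *GADD45A* passed the 2-fold line in all 3 libraries and *SELENOM* in E19 HS and E16 HS. The median gene stood at 0.34, 0.10 and 0.17, where a gene with no UMI in the gated cells was set to 3 counts. Some other gates were low in *GADD45A* against the same comparison cells too. The ratio was 0.306, 0.238 and 0.352 in *TWIST1* and *MEOX1* cells and 0.0852, 0.372 and 0.301 in *KDR* and *PLVAP* cells. Their intervals overlapped that of *SOX2* and *PAX6* cells in each library. The interval of *COL1A2* and *TMEM88* cells, at 0.363, 0.49 and 0.863, lay above it in both HS libraries. The position among all genes was not tested for these gates or without blood cells.

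**Figure D2:**
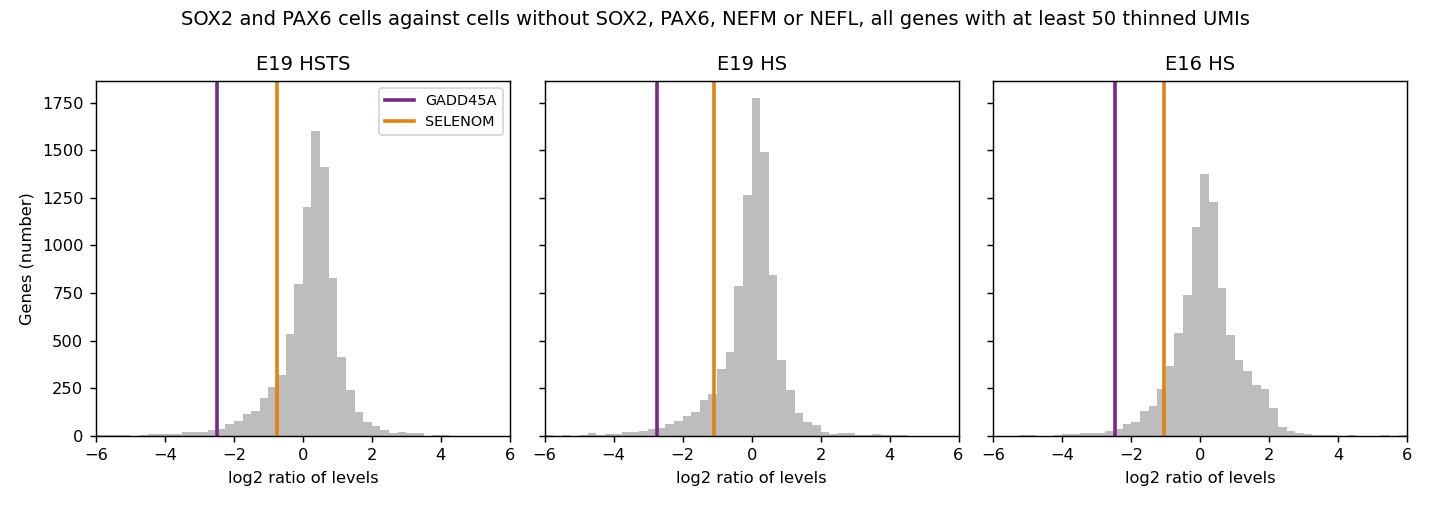
Number of genes (y axis) by the log2 ratio of their level in *SOX2* and *PAX6* cells to that in cells without *SOX2*, *PAX6*, *NEFM* or *NEFL* (x axis), for each library, with the 2 genes as vertical lines. *GADD45A* lies in the left tail, at -2.50, -2.73 and -2.49, and *SELENOM* between it and the bulk of genes, at -0.74, -1.09 and -1.04.

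In *NEFM* and *NEFL* cells the 2 genes moved apart from each other. *GADD45A* stood at -1.52, -0.42 and -0.50 and *SELENOM* at 0.49, 0.76 and 0.44 on the log2 scale. In this comparison 21.8%, 19.6% and 16.6% of genes were at least 2-fold higher and 8.0%, 8.91% and 3.64% at least 2-fold lower. *GADD45A* in E19 HSTS, from 9 UMIs, was the only value of the pair past 2-fold. Of the genes compared in the 17 such cells of E16 HS, 4079 had no UMI there, so the position of the pair among all genes was not read in that library.

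Cell classes gave the same order of levels. They were made by clustering all 3 libraries without the use of *GADD45A* and *SELENOM*. Classes were named after marker lists, and each name means resemblance. In neural progenitor-like cells, 1523, 2289 and 742 of the thinned cells, *GADD45A* stood at 15.1 CPM (11.8 to 19.1), 14.0 (11.3 to 17.1) and 27.9 (21.4 to 35.7). That is 0.161, 0.170 and 0.350 times the level in all other cells, which include the blood class. Somite-like cells stood higher at day 19, at 32.0 and 30.6 CPM. In E16 HS, at 29.5 CPM (25.8 to 33.6), they did not differ from neural progenitor-like cells beyond the intervals. A *GADD45A* UMI was found in 4.01%, 4.02% and 6.74% of neural progenitor-like cells, the lowest shares among the neural progenitor-like, somite-like and blood progenitor-like classes. Some small classes had lower shares, such as 1.08% of neural crest-like cells in E19 HS. Free RNA was not measured here, so expression of *GADD45A* above background was not shown in neural progenitor-like cells. *SELENOM* stood at 60.0, 76.5 and 73.7 CPM, or 0.609, 0.444 and 0.371 times the other cells. Of the same 3 classes its lowest shares were in blood progenitor-like cells, at 1.90%, 5.60% and 3.33%, against 16.0%, 19.0% and 19.7% in neural progenitor-like cells.

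Early neuron-like cells, 206, 218 and 17 in number, held more of both genes than the progenitors. *GADD45A* stood at 82.5 CPM (61.4 to 109), 78.0 (58.1 to 103) and 58.8 (12.1 to 172), which is 5.46 times (3.73 to 7.96), 5.58 times (3.89 to 7.91) and 2.11 times (0.424 to 6.47) the progenitor level. *SELENOM* stood at 364 CPM, 430 and 412, or 6.07 times (5.07 to 7.27), 5.62 times (4.84 to 6.51) and 5.59 times (3.37 to 8.83). Against all other cells the neurons were 4.29, 3.03 and 2.18 times higher for *SELENOM*. For *GADD45A* the ratio to all other cells was 1.04 (0.769 to 1.37), 1.20 (0.890 to 1.59) and 0.777 (0.160 to 2.27), with intervals that hold 1. Both genes were found in 11.7%, 10.1% and 11.8% of neuron-like cells against 0.788%, 1.18% and 1.08% of progenitor-like cells.

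By UMIs at full depth, blood progenitor-like cells held more of each library's *GADD45A* than any other class. In level they stood below the unnamed clusters 8 and 18, and at 3000 UMIs per cell cluster 8 held more *GADD45A* UMIs in both HS libraries. The level in the blood class was 144 CPM (135 to 152), 115 (105 to 126) and 116 (107 to 125), or 9.51, 8.22 and 4.16 times that of neural progenitor-like cells. At full depth the class held 66.8%, 44.6% and 35.0% of the library's *GADD45A* UMIs with 45.6%, 28.8% and 24.5% of all its UMIs. Neural progenitor-like cells held 2.32%, 4.08% and 1.98% of *GADD45A* UMIs with 13.2%, 20.5% and 5.85% of all UMIs. *SELENOM* was low in the blood class, at 6.58 CPM (4.90 to 8.65), 20.6 (16.5 to 25.4) and 12.5 (9.77 to 15.7). The blood cells come mostly from clusters 5 and 6 at day 19 and mostly from cluster 4 in E16 HS.

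*SELENOM* had its highest level, among the named classes, in mesenchyme-like cells, which in E16 HS did not differ from early neuron-like cells beyond the intervals. It stood at 632 CPM (497 to 794), 846 (723 to 983) and 424 (405 to 444) in 39, 67 and 1505 cells. *GADD45A* stood at 42.7, 59.7 and 57.4 CPM there, below the blood class. In E16 HS the class held 40.3% of all *SELENOM* UMIs, against 3.20% and 4.84% in the day 19 libraries. Both genes met in 10.3%, 13.4% and 10.96% of mesenchyme-like cells.

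Most remaining classes lay between these. Somite-like cells had 32.0, 30.6 and 29.5 CPM of *GADD45A* and 86.1, 119 and 109 CPM of *SELENOM*, and gut-like cells 36.4, 36.1 and 37.0 CPM of *GADD45A* and 152, 151 and 151 CPM of *SELENOM*. Neighbouring classes in this order often did not differ beyond their intervals, as in the gut-like, haematoendothelial-like and neural crest-like cells of each library for *GADD45A*, with the exception of E19 HS, where 1 *GADD45A* UMI was found in 93 neural crest-like cells. Extraembryonic endoderm-like cells had 55.0 and 34.0 CPM of *SELENOM* at day 19 and 233 CPM (163 to 325) in E16 HS, from 97, 98 and 50 cells. Cluster 3, whose cells were shallow and had almost no mitochondrial UMIs, stayed unnamed and had 29.6, 17.2 and 23.1 CPM of *GADD45A*. Cluster 10, with *FGF8*, *CDX2* and *WNT5B* among its leading genes and largely from E16 HS, stayed unnamed as well, with 0 of 32 cells, 6 of 104 and 67 of 1111 cells holding *GADD45A*. For the 32 cells of E19 HSTS, 0 cells allow a share of up to 10.9% (exact upper limit). Cluster 18, with the platelet genes *GP1BB* and *CLEC1B* among its leading genes, had 190, 167 and 178 CPM of *GADD45A* in only 7, 6 and 43 cells, and *SELENOM* in 0, 0 and 2 UMIs.

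**Figure D3:**
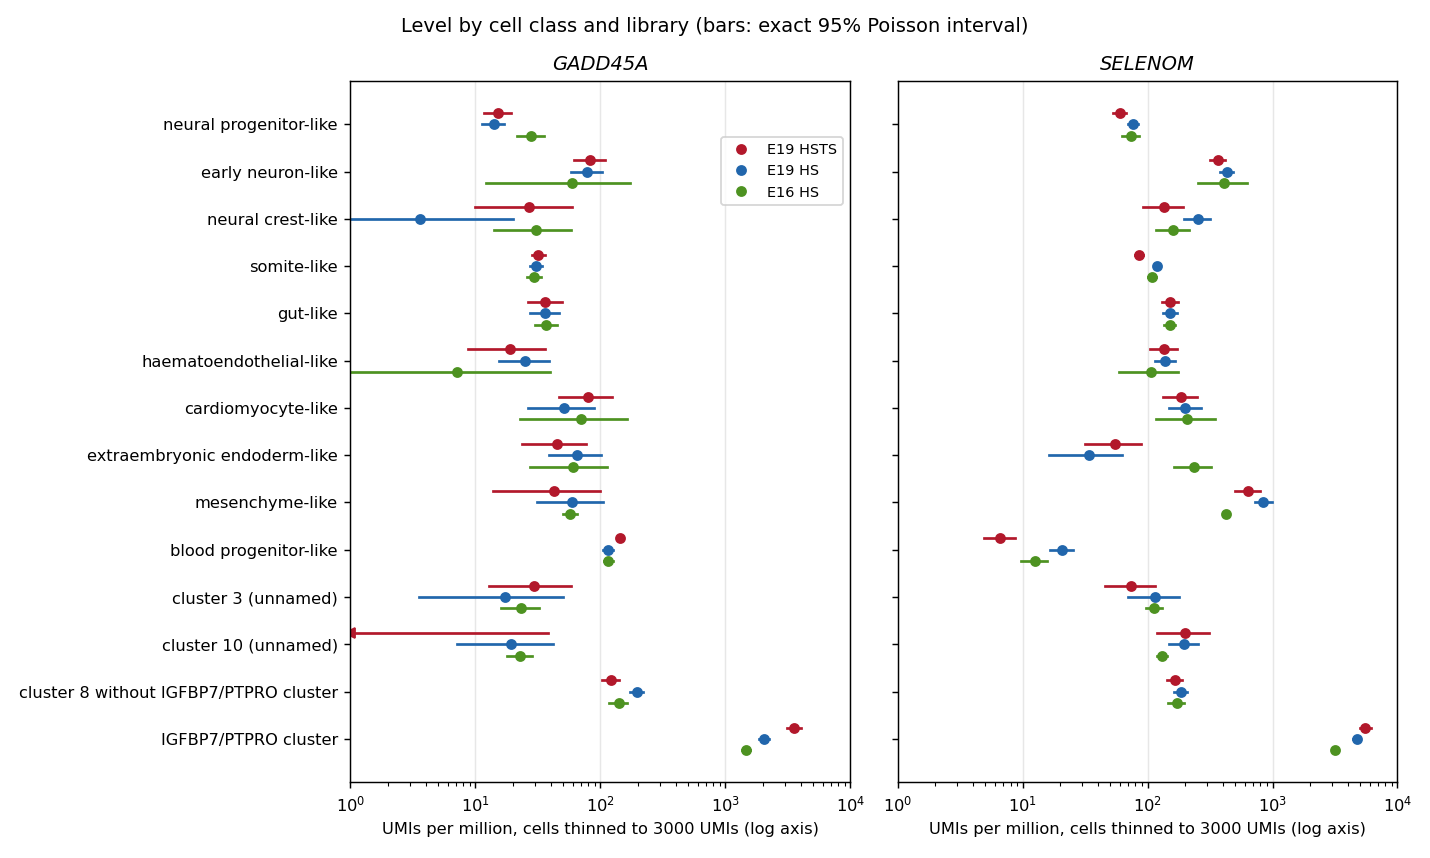
Level of *GADD45A* (left) and *SELENOM* (right) in CPM on a log axis, for each cell class on the y axis and each library by colour, with exact 95% Poisson intervals as bars and an arrow for a level of 0. Neural progenitor-like cells lie at 14.0 to 27.9 CPM of *GADD45A* and blood progenitor-like cells at 115 to 144 CPM, while the *IGFBP7*/*PTPRO* cluster lies above 1000 CPM for both genes in each library.

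A small group of cells held both genes at levels far above any class. In a finer clustering of 34 clusters, 1 cluster had the highest *GADD45A* level, and it was singled out after these values were seen, so its levels are a description. It held 36, 80 and 150 kept cells and 25, 71 and 148 thinned cells, all inside cluster 8 of the main clustering, an unnamed cluster. Here it is called the *IGFBP7*/*PTPRO* cluster after 2 of its leading genes. Of its cells 0, 2 and 12 had doublet scores among the top 8% of their library. It was seen as a group of its own at the finer resolution only: after alignment of the libraries (RPCA integration) all of its cells but 1 lay inside a cluster of 498, 592 and 515 cells.

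Its cells carried several *GADD45A* and *SELENOM* transcripts each. *GADD45A* stood at 3560 CPM (3146 to 4014), 2052 (1864 to 2253) and 1464 (1354 to 1581), or 51.2, 41.1 and 26.7 times the level in all other cells. *SELENOM* stood at 5533, 4700 and 3133 CPM, or 73.2, 41.4 and 21.6 times. Both were found in 100%, 98.6% and 95.9% of the cells. Per cell of 3000 UMIs, the lowest, median and highest *GADD45A* counts were 1, 11 and 25 in E19 HSTS, 1, 5 and 26 in E19 HS, and 0, 4 and 14 in E16 HS. For *SELENOM* they were 5, 17 and 26, then 0, 13 and 41, then 1, 8 and 30. In all other cells the median was 0 for both genes in each library, and the highest counts were 6, 9 and 6 for *GADD45A* and 18, 10 and 9 for *SELENOM*.

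These few cells made up much of what the pair picks out. They held 10.8%, 17.1% and 26.0% of their library's *GADD45A* UMIs and 19.5%, 22.6% and 22.6% of its *SELENOM* UMIs with 0.278%, 0.606% and 1.41% of all UMIs. They made up 10.6%, 19.4% and 27.9% of the cells with both genes. Of the cells with at least 3 thinned UMIs of both genes, 29, 69 and 103 in number, 79.3%, 89.9% and 96.1% belonged to this cluster. None of these strongly positive cells held *SOX2* and *PAX6* together, and 1, in E19 HS, held *SOX2*. Without the cluster both genes were found in 2.47%, 3.15% and 3.72% of cells, and the product of the single-gene shares, 2.78%, 2.90% and 3.88%, lay within the interval of each. The cluster was picked for its *GADD45A* level, so leaving it out lowers the share with both by construction. The pooled product also mixes classes of unlike levels. In E19 HSTS the pair lay above its product in early neuron-like cells, 11.7% (7.61 to 16.8) against 6.73%, and somite-like cells, 2.65% (2.08 to 3.32) against 1.87%. In other classes the interval held it, as in mesenchyme-like cells of E16 HS, 10.96% (9.43 to 12.7) against 9.94%.

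**Figure D4:**
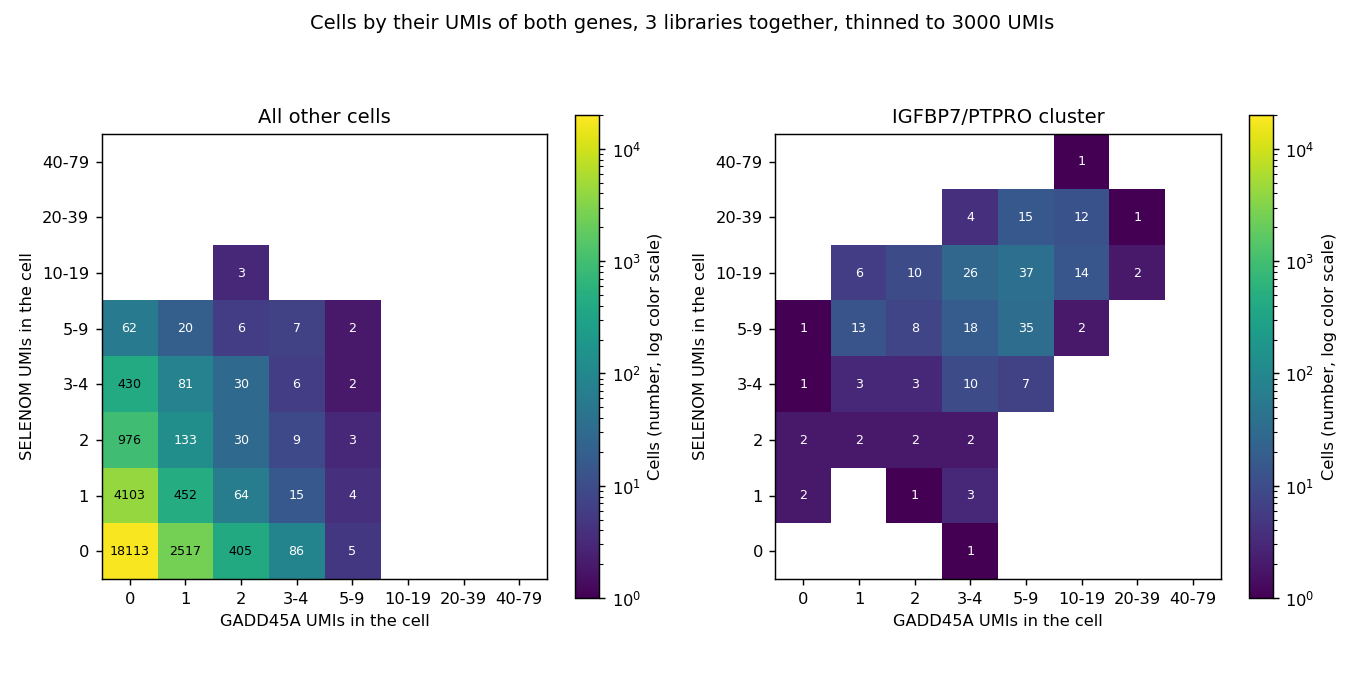
Number of cells (colour on a log scale, and printed) by their *GADD45A* UMIs (x axis, in bins) and *SELENOM* UMIs (y axis, same bins), over the 3 libraries, for the *IGFBP7*/*PTPRO* cluster (right) and all other cells (left), thinned to 3000 UMIs. Outside the cluster nearly all cells lie at 0 to 2 UMIs of each gene, and inside it most lie at 3 or more of both.

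Most neural genes were at 0 in the cluster. *PAX6* and *NEFM* were found in 0 of its cells in all 3 libraries and *SOX2* in 0, 1 and 1 cells. All 8 early neuron genes that the tables list had no UMI in it. The neural progenitor list reached 1773, 1296 and 1502 CPM in it, through 2 or 3 of its 12 genes: *NES*, which encodes an intermediate filament also made outside neural tissue, in each library, with *FABP7* at day 19 and *SOX2* in the HS libraries. Its leading genes were *IGFBP7*, *PTPRO*, *PTPRQ*, *TCF21*, *ENPEP*, *CDKN1C*, *PARD3B*, *RARRES2*, *SLPI* and *C1QA*. *CDKN1C*, an inhibitor of cyclin-dependent kinases, was found in 100% of the cells in each library. *C1QA* was found in 20 of 25, 44 of 71 and 114 of 148 cells while its usual partners *C1QB* and *C1QC* were at 0.

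Some genes known from the glomerular podocytes of the kidney were found there, and the identity of the cells was not settled. *PTPRO*, a receptor phosphatase of podocytes, was found in 23 of 25, 44 of 71 and 76 of 148 cells, and in 0.436%, 0.347% and 0.507% of other cells. *TCF21*, a transcription factor of podocytes and of mesenchymal cells, was found in 20, 57 and 111 of them. *WT1*, a transcription factor of the urogenital ridge, was found in 24.0%, 18.3% and 17.6% against 0.436%, 0.640% and 0.487%, and *NPHS1*, which encodes nephrin, in 4 of 25, 4 of 71 and 12 of 148 cells. *PAX2*, of the urogenital pair, was at 0 in all 3 libraries. The list of 7 urogenital genes had 3, 4 and 4 members detected, with a summed level of 120, 131 and 101 CPM against 30.5, 27.7 and 19.4 CPM in all cells. These podocyte genes were looked up after the leading genes were seen.

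The rest of cluster 8 also ranked high for the pair. In its other 450, 498 and 350 cells *GADD45A* stood at 121, 195 and 140 CPM and *SELENOM* at 164, 184 and 170 CPM, and both met in 10.2% (7.58 to 13.4), 17.3% (14.1 to 20.9) and 12.3% (9.04 to 16.2). The leading genes of cluster 8 as a whole included *IGFBP7*, *C1QA*, *SLPI*, *DLK1*, *DCDC2*, *NRK*, *PTPRO* and *CDKN1C*. At a resolution of 1.0 nearly all its cells outside the *IGFBP7*/*PTPRO* cluster fell in parts named urogenital-like by the same rule. The larger part, with *CALB1* and *LHX1* among its leading genes, held 374, 424 and 347 of them. Another, with *CDH16* and *LRP2*, held 76 and 74 at day 19. The *IGFBP7*/*PTPRO* cluster itself stayed unnamed. Cluster 8 as a whole held 30.2%, 43.3% and 36.3% of cells with both genes while it held 5.58%, 6.13% and 4.97% of thinned cells. Neural progenitor-like cells held 5.11%, 7.50% and 1.57% of the cells with both genes while they were 17.9%, 24.7% and 7.41% of thinned cells.

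Other genes of the families and pathways of the pair were read for the same comparisons. Of the GADD45 family, *GADD45G*, which also responds to stress and is known from neuronal precursors, stood at 18.5, 14.7 and 14.7 CPM over whole libraries and *GADD45B* at 0.974, 0.811 and 0.521. In *SOX2* and *PAX6* cells *GADD45G* stood at 61.1, 21.5 and 2.47 CPM, from 55, 25 and 1 UMIs, against 18.5, 12.4 and 16.1 CPM in cells with none of the 4 genes, so it did not follow *GADD45A* at day 19. In *NEFM* and *NEFL* cells it stood at 65.9, 54.1 and 78.4 CPM, from 18, 18 and 4 UMIs, more than 2-fold above those cells in each library. *GADD45GIP1*, a mitochondrial ribosome protein that binds GADD45 proteins, lay within 2-fold in both comparisons.

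Selenoproteins passed 2-fold in *SOX2* and *PAX6* cells about as often as genes at large, of which 11.5%, 6.34% and 9.36% were higher and 8.88%, 10.9% and 9.03% lower. There 11, 12 and 11 selenoproteins could be compared, of which 0, 0 and 1 (*TXNRD3*) were at least 2-fold higher and 1, 1 and 2 at least 2-fold lower: *GPX1* in E19 HSTS, *SELENOM* in E19 HS, and both in E16 HS. Their median log2 ratio was -0.57, -0.44 and -0.35 against 0.34, 0.10 and 0.17 for all genes. *GPX1*, a cytosolic glutathione peroxidase abundant in red cells, stood at 0.429, 0.549 and 0.389 times the level in cells with none of the 4 genes, *SELENOW* at 0.526, 0.657 and 0.563 times, and *GPX4*, which reduces lipid peroxides, at 1.33, 1.15 and 0.860 times. Over whole libraries *GPX1* stood at 856, 623 and 1006 CPM, *GPX4* at 508, 675 and 983 and *SELENOW* at 208, 214 and 245, each above *SELENOM*. In all, 15 of 28 listed selenoprotein symbols were in the tables.

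The stress lists were counted in *SOX2* and *PAX6* cells, where 11.5%, 6.34% and 9.36% of all genes were at least 2-fold higher and 8.88%, 10.9% and 9.03% at least 2-fold lower. Integrated stress response genes were above the share of higher genes in each library, and at day 19 above the share of lower genes as well. Their median log2 ratio was -0.17, -0.19 and 0.73 against 0.34, 0.10 and 0.17 for all genes. Dissociation stress genes were above the share of lower genes in each library. These counts rest on few members. Of p53 target genes 1 of 7 (*RRM2B*), 0 of 5 and 0 of 9 were at least 2-fold higher. At least 2-fold lower were 2 (*BTG2* and *TP53I3*), 1 (*TP53I3*) and 0 of them. Of dissociation stress genes, which tissue handling induces, 0 were higher in each library. Lower were 5 of 13 (*FOS*, *ATF3*, *HSPA1A*, *DNAJB1* and *BTG2*), 4 of 13 (*EGR1*, *IER2*, *ATF3* and *HSPA1A*) and 2 of 11 (*JUND* and *KLF6*). Of integrated stress response genes 2 of 9, 2 of 9 and 2 of 8 were higher, namely *DDIT4* in each library, *PSAT1* at day 19 and *CEBPG* in E16 HS. Lower were *ATF3* in both day 19 libraries, *ASNS* in E19 HSTS and *PPP1R15A* in E19 HS. Of endoplasmic reticulum folding genes 0 of 17 were higher, and 1 (*DNAJC3*), 3 (*DNAJB9*, *HERPUD1* and *UGGT1*) and 2 (*DNAJC3* and *HERPUD1*) were lower. Of 7 genes of selenocysteine incorporation 2 (*EEFSEC* and *PSTK*), 1 (*PSTK*) and 0 were higher and 1 (*SEPSECS*), 1 (*EEFSEC*) and 0 lower. Of 11 genes of G2 and M phase 0, 1 (*CDC20*) and 0 were higher and 0 lower. In *NEFM* and *NEFL* cells 7, 10 and 8 of these 11 were lower, as were 8.0%, 8.91% and 3.64% of all genes.

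In the *IGFBP7*/*PTPRO* cluster the folding genes stood out. Of 17, 15, 16 and 16 were at least 2-fold above all other cells, where 27.5%, 24.2% and 15.3% of all genes were. *HSPA5*, the main chaperone of the endoplasmic reticulum, stood at 1227, 962 and 579 CPM against 295, 254 and 236, and *CALR*, a calcium-binding chaperone of the same compartment, at 720, 685 and 1036 CPM against 231, 240 and 308. At least 2-fold lower were 4.69%, 6.53% and 12.4% of all genes, and of the 11 G2 and M phase genes 5 (*TOP2A*, *CDK1*, *HMMR*, *TPX2* and *CDC20*), 10 and 11. The p53 target *TP53I3*, a quinone oxidoreductase, stood at 240, 178 and 122 CPM against 4.60, 4.31 and 8.99, and of all p53 targets compared 2 of 7 (with *DDB2*), 2 of 5 (with *AEN*) and 3 of 9 (with *RRM2B* and *CDKN1A*) were higher. *CDKN1A*, the p53 target that arrests the cell cycle, was found in 4 of 25, 5 of 71 and 4 of 148 cells. *GPX1* was lower in each library, at 240, 192 and 221 CPM against 674, 458 and 854.

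Genes with a pattern like the pair over classes were ranked by Pearson correlation of log2(CPM + 1) over 34 points, each 1 class in 1 library, among 5286 genes. The points of 1 library share its depth and free RNA, and the values are a description. *GADD45A* was most like *C1QA* (0.717), *CPEB4* (0.664), *HAGH* (0.631), *DMAC2L* (0.609) and *SMDT1* (0.601). Without the 3 points of cluster 8 the first genes were *GATA1* (0.696), the main erythroid transcription factor, then *BLVRB* (0.668), *DMAC2L* (0.652), *AHSP* (0.649) and *ELL2* (0.649), and *C1QA* fell to 0.153. *SELENOM* was most like *RAB2A* (0.824), *BBX* (0.822), *SWI5* (0.800), *GPX4* (0.798) and *TBCA* (0.790). Between *GADD45A* and *SELENOM* themselves the correlation was 0.187, and -0.268 without cluster 8.

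Between libraries, *GADD45A* was higher and *SELENOM* lower in E19 HSTS than in E19 HS. Over all kept cells at full depth the ratio was 1.27 (1.23 to 1.31) for *GADD45A* and 0.605 (0.587 to 0.623) for *SELENOM*, or 0.35 and -0.73 on the log2 scale, with a median gene at -0.05. Of the 11149 genes compared, 90.5% lay below *GADD45A* and 3.55% below *SELENOM*, and 1.17% were at least 2-fold higher and 1.64% at least 2-fold lower, neither gene among them. In such sums fewer cells of a type and less RNA per cell cannot be told apart, so the ratio was taken within classes as well. Without blood progenitor-like cells the *GADD45A* ratio was 0.995, and with the class shares of E19 HS given to both libraries it was 1.17, and that of *SELENOM* 0.862.

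In most classes the *GADD45A* ratio between breeds had an interval that holds 1. For E19 HSTS to E19 HS its ratio was 1.08 (0.781 to 1.49) in neural progenitor-like cells, 1.06 (0.704 to 1.59) in early neuron-like cells and 1.05 (0.886 to 1.24) in somite-like cells. It was 1.25 (1.12 to 1.39) in blood progenitor-like cells and 1.74 (1.48 to 2.03) in the *IGFBP7*/*PTPRO* cluster. *SELENOM* stood at 0.784 (0.675 to 0.909) in neural progenitor-like cells, 0.724 (0.659 to 0.795) in somite-like cells, 0.847 (0.708 to 1.01) in early neuron-like cells and 0.320 (0.222 to 0.457) in the blood class. In gut-like cells it was 1.01 (0.827 to 1.23) and in the *IGFBP7*/*PTPRO* cluster 1.18 (1.05 to 1.32). Breed, embryo and library coincide here and cannot be told apart.

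For E16 HS to E19 HS the ratio was 1.11 (1.07 to 1.14) for *GADD45A* and 1.52 (1.48 to 1.55) for *SELENOM*, or 0.15 and 0.60 on the log2 scale, where the median gene stood at 0.25. Of the 11336 genes compared, 6.47% were at least 2-fold higher in E16 HS and 5.13% at least 2-fold lower, and neither gene was among them. The *GADD45A* ratio was 0.959 with TMM scaling and 0.998 without the *IGFBP7*/*PTPRO* cluster. Within classes *SELENOM* went both ways. Its ratio was 0.964 in neural progenitor-like cells, 0.913 in somite-like cells, 0.999 in gut-like cells and 0.502 (0.429 to 0.590) in mesenchyme-like cells. In extraembryonic endoderm-like cells, by contrast, its level was 233 CPM in E16 HS against 34.0 in E19 HS. In cluster 8 as a whole *SELENOM* was at 1051 against 748 CPM, but both parts of that cluster were lower in E16 HS by point value. The *IGFBP7*/*PTPRO* cluster had 3133 against 4700 CPM, and was 148 of 498 thinned cells against 71 of 569. The rest of cluster 8 had 170 against 184 CPM. Cardiomyocyte-like cells, at 208 CPM (117 to 344) against 201 (148 to 267), did not differ beyond the intervals. With the class shares of E19 HS given to both libraries the ratio was 0.855. Of the gut-like class, cluster 13 of the main clustering was almost only E16 HS, with 2, 7 and 329 kept cells. Mesenchyme-like cells of the days fell mostly in different clusters at a resolution of 1.0, cluster 12 with 2, 2 and 1277 kept cells and cluster 16 with 141, 174 and 332. The mesenchyme-like class, where *SELENOM* was highest, was 15.0% of thinned cells in E16 HS against 0.722% in E19 HS. The *GADD45A* ratio was 1.99 (1.42 to 2.77) in neural progenitor-like cells, 1.01 in blood progenitor-like cells and 0.714 (0.631 to 0.807) in the *IGFBP7*/*PTPRO* cluster.

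**Figure D5:**
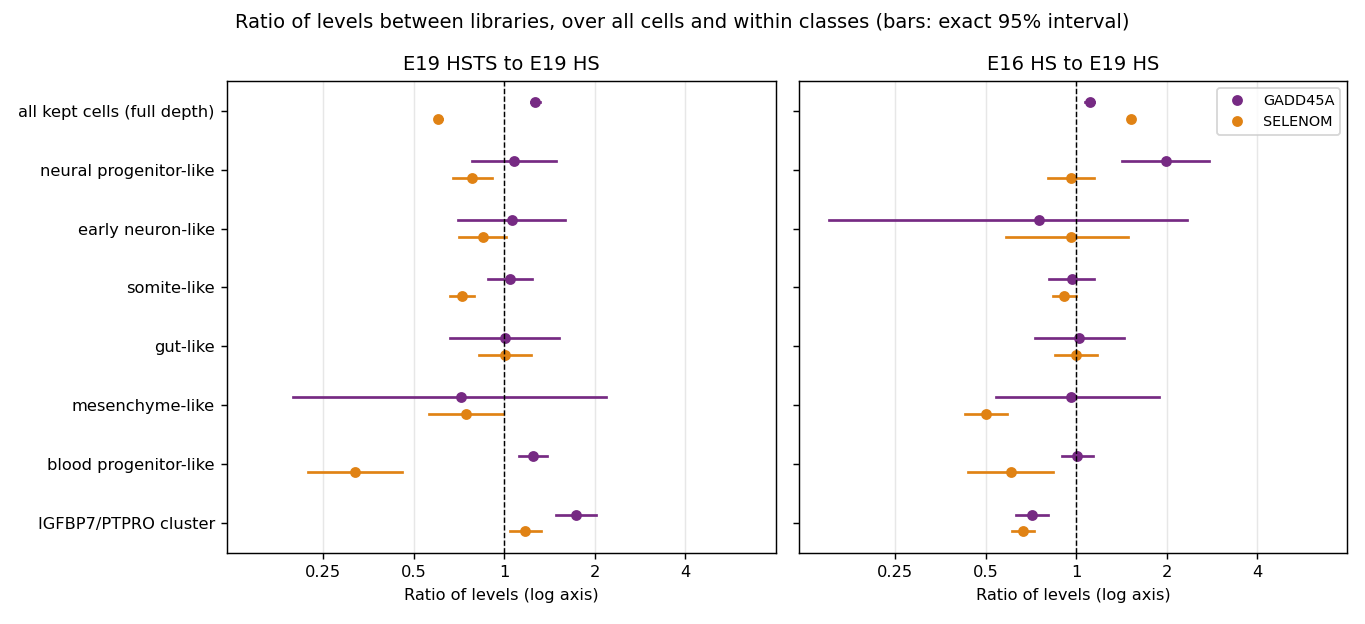
Ratio of levels between libraries (x axis, log) for *GADD45A* and *SELENOM* over all kept cells and within the classes on the y axis, with exact 95% intervals as bars and a dashed line at 1. The *SELENOM* ratio of E16 HS to E19 HS is 1.52 over all cells and 0.502 to 0.999 within the classes plotted, which leave out the extraembryonic endoderm-like cells.

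Depth sets much of how often the pair is seen. In blood progenitor-like cells, with a median of 17492, 17568 and 13947 UMIs, both genes were found in 5.69%, 21.3% and 8.88% of cells at full depth, in 0.735%, 1.35% and 0.936% at 3000 UMIs and in 0.114%, 0.352% and 0.151% at 1500 UMIs. In neural progenitor-like cells, with a median of 7301, 6784 and 7249 UMIs, the shares at full depth were 4.44%, 4.18% and 8.33%, and at 3000 UMIs 0.788%, 1.18% and 1.08%. At full depth the classes thus lay far apart in E19 HS and close together in the other libraries, and at 3000 UMIs their intervals in E19 HS, 0.813 to 2.10% and 0.779 to 1.71%, overlapped.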

How the data were processed

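The authors sequenced 3 droplet libraries (10x, 3′ v3.1 chemistry) and made the deposited values, raw UMI counts per gene and cell barcode called as a cell, with Cell Ranger 6.1.2 on Ovis_aries_genome_v1.0. The submitters' notes also name Seurat 4.1.1 in R 4.1.2 for their own analysis. The counts were checked to be whole and unscaled. The cell filter passed barcodes that had between 200 and 6000 detected genes, between 1000 and 30000 UMIs and no more than 10% of UMIs from MT- genes. GEO's labels gave the groups.

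Counts were handled with numpy 2.4.6, pandas 2.3.3 and scipy 1.17.1 under Python 3.11.15. Cells were thinned without replacement to 3000 UMIs (seed 1). Clusters were made in Seurat 5.3.0 (R 4.3.3) over all libraries together from 2000 variable genes less *GADD45A* and *SELENOM*, with the mitochondrial share regressed, 25 components and a resolution of 0.25 (19 clusters). Each cluster was set against 18 marker lists, and the list with most members among its 10 leading genes (then the highest mean standardised level) gave its name where at least 3 of the list's markers were each detected in 10% of cells and that mean level was at least 1. Doublets were scored with Scrublet in scanpy 1.11.5 and not removed in the values reported. Ratios across all genes used those with at least 50 UMIs. A count of 0 was set to 3 and was never called in the direction in which that floor pushed it, a condition added after the data were seen.

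The members, lists and tests were chosen with earlier results of these data known. Named are the 2 genes, the gate genes, the 5 genes most alike to each over classes, and of the 8 pathway lists the measured GADD45 family, the selenoproteins of highest level and members past 2-fold in all 3 libraries. The cluster of highest *GADD45A* level and its genes were chosen after the values were seen, as were genes named because 5 or fewer of a list passed. Alternatives tried were all deposited cells, a stricter filter, a second thinning draw, 1500 UMIs, other detection limits, a resolution of 1.0, RPCA, blood or top-scoring doublet cells left out, and TMM scaling in edgeR 4.0.16. Scripts were tested on simulated data. No reference genome was used, so no positions or sequences are given.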

Additional observations from a re-analysis of the deposited data

Results flagged for a closer look

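The ratio of *SELENOM* in *NEFM* cells to cells with none of *SOX2*, *PAX6*, *NEFM* and *NEFL* was 2.43 in E19 HSTS and 1.59 in E19 HS but 0.737 in E16 HS, with intervals on opposite sides of 1. In *CLDN7* and *KRT7* cells the same ratio was 1.94 in E19 HSTS and 0.519 in E16 HS. For *GADD45A*, the ratio of E16 HS to E19 HS was 1.99 in neural progenitor-like cells and 8.54 in neural crest-like cells, the latter against a single UMI in E19 HS, but 0.714 in the *IGFBP7*/*PTPRO* cluster. These differences between libraries and classes were not tested, since each group is 1 library.

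Barcodes that the cell filter removed also held both genes. Over them *GADD45A* stood at 101, 85.0 and 51.0 CPM (E19 HSTS, E19 HS, E16 HS) and *SELENOM* at 88.7, 91.8 and 141 CPM. The corresponding levels in kept cells were 93.2, 73.4 and 81.4 CPM for *GADD45A* and 74.8, 124 and 188 CPM for *SELENOM*.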

How the results depend on the processing

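Over 174 recalculations of 32 results, 104 stayed within the 95% counting interval of the reported value (for counts of genes, within 1.5 times), 65 lay outside it, many by little, and 5 reversed. The cause was not tested. All 54 ratios of *SOX2* and *PAX6* cells and all 24 ratios of neural progenitor-like cells under these alternatives lay below 1. They were taken from the same cells and are not independent, and the intervals of some *SELENOM* ratios held 1. No paired analysis was possible because each group has 1 library. Leaving out the *IGFBP7*/*PTPRO* cluster, the class-share standard and blood cells for class ratios were chosen after seeing the data. Counting error, 1 embryo or pool per group and rebuilt class names limit all values.

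For E19 HSTS to E19 HS, the *GADD45A* ratio was 1.397 with the stricter filter, 0.995 without blood cells (reversed), 1.36 without the *IGFBP7*/*PTPRO* cluster, 1.32 with TMM and 1.17 with the class shares of E19 HS. *SELENOM* gave 0.623 over all deposited cells, 0.805 without blood cells, 0.627 without the cluster, 0.629 with TMM and 0.862 with those class shares. For E16 HS to E19 HS, *GADD45A* gave 1.26 with the stricter filter, 1.05 over all deposited cells and 1.23 without blood cells, and it reversed to 0.998 without the cluster, 0.959 with TMM and 0.952 with those class shares. *SELENOM* gave 1.68 with the stricter filter, 1.48 without blood cells, 1.31 with TMM and a reversed 0.855 with those class shares.

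The share of cells with both genes (E19 HSTS, E19 HS, E16 HS) was 3.64%, 4.33% and 6.07% without blood cells, 1.14%, 1.69% and 2.48% at 1500 UMIs, and 0.576%, 1.08% and 1.58% with at least 2 UMIs of each. With the stricter filter it was 2.39% and 3.28% at day 19, and without the cluster 3.15% in E19 HS and 3.72% in E16 HS. Of cells with both genes, 10.4%, 8.19% and 2.21% held *SOX2*, *PAX6* or *NEFM* at 1500 UMIs, and 22.6%, 20.3% and 10.2% with these genes read at full depth.

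For *SOX2* and *PAX6* cells, the *SELENOM* ratio in E19 HSTS was 0.389 without blood cells and 0.876 with another thinning draw, and in E19 HS 0.664 without the cluster. In E16 HS it was 0.980 at 1500 UMIs and 0.205 with at least 2 UMIs of each gate gene. The *GADD45A* ratio was 0.0707 in E19 HSTS with at least 2 gate UMIs, and in E16 HS it was 0 at 1500 UMIs and 0 with 2 gate UMIs, where no *GADD45A* UMI was left. For neural progenitor-like cells, *GADD45A* gave 0.208 with RPCA and 0.234 without blood cells in E19 HSTS, and 0.226 and 0.488 without the cluster in E19 HS and E16 HS. *SELENOM* gave 0.759, 0.608 and 0.487 without the cluster and 0.393, 0.363 and 0.298 without blood cells.

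Genes at least 2-fold higher in *SOX2* and *PAX6* cells numbered 1916, 1208 and 1570 with a minimum of 10 UMIs and 401, 201 and 288 with 200, against 1004, 564 and 841. Genes at least 2-fold lower numbered 379 and 408 at day 19 with 200, against 776 and 968. Between libraries a minimum of 10 UMIs gave 336 higher and 462 lower for E19 HSTS to E19 HS and 1138 and 1115 for E16 HS to E19 HS, where TMM gave 453 higher, against 131, 183, 733 and 581.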
